A study of Mus musculus with 4 samples.

Results

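F-box substrate receptor genes were followed through oocyte maturation in 74 genes of the 23309 gene symbols measured. The members were all genes whose symbol begins with Fbxl, Fbxo or Fbxw followed by a number, and Fbxo5 and Fbxo43, which act on the anaphase-promoting complex, were left out. The choice rested on names and on no measured value. The members were 18 Fbxl genes, 35 Fbxo genes and 21 Fbxw genes, and 12 of the Fbxw genes lie side by side on chromosome 9.

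Messenger RNA was sequenced in 4 libraries of ICR mouse oocytes, each from 60 oocytes or embryos of females 21 to 23 days old. The groups were Erk-/- MII, wild-type MII, Erk-/- GV and wild-type GV. GV oocytes still hold the intact nucleus (germinal vesicle) of prophase arrest, and MII oocytes have matured to the second meiotic metaphase. The labels name the hormones PMSG and hCG for all groups and do not say which Erk gene was deleted, in which cells or by what means. Their treatment text names Btg4-/- females, although the genotype field gives Erk-/-. The design text speaks of single oocytes. There was 1 library per group, so differences have no replicate check and no test was possible. A member was counted as higher or lower when its ratio was at least 2-fold on the log2(FPKM + 1) scale. FPKM are fragments scaled to transcript length and to all mapped fragments, so they are relative to each library's total. A lower FPKM cannot be told apart from fewer oocytes carrying the transcript. A loss of RNA per oocyte shared by all genes would not show in FPKM. A higher FPKM at MII thus does not show a larger amount of that mRNA. Losses and shares left below are those of FPKM.

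An F-box protein is the exchangeable part of the SCF ubiquitin ligase. Its F-box motif binds the adaptor SKP1, which binds the scaffold cullin CUL1 and through it the RING protein RBX1. The rest of the F-box protein recognises the substrate, through WD40 repeats in Fbxw proteins, leucine-rich repeats in Fbxl proteins and other domains in Fbxo proteins. Oocytes make little new mRNA between the GV and MII stages, and their stored maternal mRNA is translated, kept or degraded. The mouse genome holds a run of closely related Fbxw genes on chromosome 9 known from oocytes. All 4 libraries are oocytes, so whether these genes are specific to oocytes was not measured here.

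The labels were first set against an ERK gene and marker genes. Mapk3, which encodes ERK1, had 34.3 FPKM in the library labelled Erk-/- MII and 25.7 in wild-type MII, and 52.3 in Erk-/- GV against 333 in wild-type GV. Mapk3 was thus far lower in the Erk-/- GV library than in wild-type GV, whereas at MII it was not lower in the library labelled Erk-/-. Every direction below that uses the library labelled Erk-/- MII rests on that label. All 8 oocyte markers were above 0 in every library. Of 13 granulosa and cumulus markers, which summed to 14.6 to 29.4 FPKM, 7 were listed at 0 in all 4 libraries, Amh, Fshr and Foxl2 among them. Others were present: Cyp19a1 reached 21.8 FPKM in wild-type MII, and Nr5a2 reached 17.0 and Inha 11.3 in Erk-/- GV. Markers of other ovarian and blood cells summed to 27.1 to 64.3 FPKM, with 6 of 8 at 0 everywhere. Most of that sum was Pecam1, at 25.6 to 64.3 FPKM. The width of the deposited bounds gave relative depths of 0.808 to 1.03, and genes of at least 10 FPKM numbered 4397 in the library labelled Erk-/- MII, 3570 in wild-type MII, 5543 in Erk-/- GV and 5682 in wild-type GV.

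Most F-box receptor genes were detected in oocytes, at levels of up to 1479 FPKM. Of the 74 members, 45 were above 0 FPKM in every library and 49 reached 10 FPKM in at least 1 library. Another 9 were listed at 0 in all 4 libraries: Fbxl15, Fbxl16, Fbxo2, Fbxo4, Fbxo24, Fbxo27, Fbxo41, Fbxo44 and Fbxo48. Fbxo2 is a receptor for glycoproteins that is best known from brain. A mean of at least 1 FPKM over the 4 libraries was required for comparison, and 59 members passed it. Among those that did not, Fbxw10, Fbxl22, Fbxo39 and Fbxo47 stayed below 4 FPKM in every library, and Fbxo6 and Fbxo32 below 0.1 FPKM. Fbxo32 encodes atrogin-1, the receptor of muscle atrophy.

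The chromosome 9 Fbxw genes held most of the F-box receptor mRNA of the GV oocyte. In the coordinates of mouse build mm9 the 12 genes span chr9:109041968-109648603, a stretch of 607 kb in which the files list no other gene. All 12 lie on the minus strand, in the order Fbxw21, Fbxw13, Fbxw20, Fbxw14, Fbxw28, Fbxw22, Fbxw16, Fbxw19, Fbxw15, Fbxw24, Fbxw18 and Fbxw26. Their FPKM summed to 2469 in the library labelled Erk-/- MII, 1372 in wild-type MII, 5137 in Erk-/- GV and 6102 in wild-type GV. This was 61.7% of all member FPKM in the library labelled Erk-/- MII, 46.4% in wild-type MII, 82.0% in Erk-/- GV and 82.7% in wild-type GV. The 62 other members summed to 1532 FPKM in the library labelled Erk-/- MII, 1584 in wild-type MII, 1129 in Erk-/- GV and 1274 in wild-type GV. The cluster was therefore lower at MII than at GV, while the sum of the other members was higher at MII. In both GV libraries every cluster gene but Fbxw28 had an FPKM outside its own deposited bounds, so the cluster sums rest on such values.

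**Figure D1:**
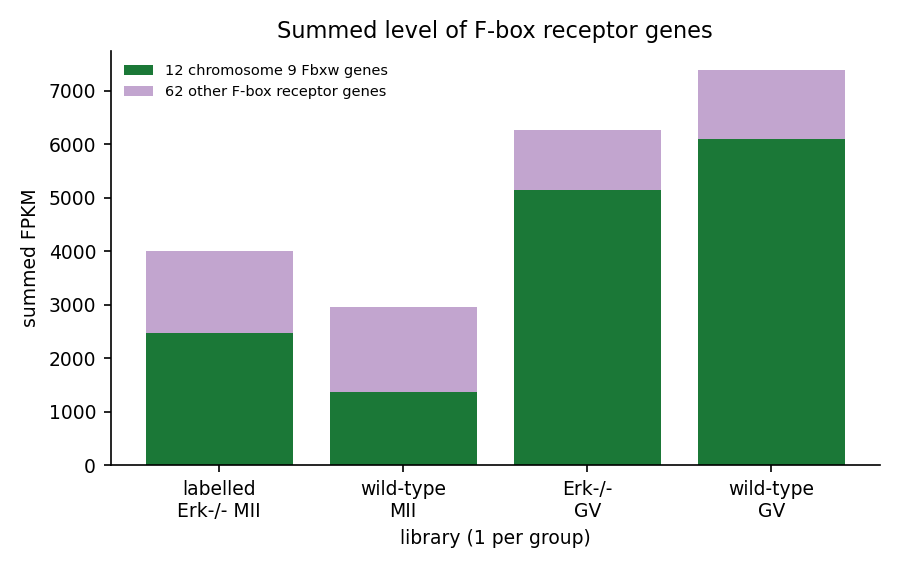
Summed FPKM of the 12 chromosome 9 Fbxw genes (lower part of each bar) and of the 62 other F-box receptor genes (upper part) in each library, 1 library per group and no error bars. The cluster sum was 2469 in the library labelled Erk-/- MII, 1372 in wild-type MII, 5137 in Erk-/- GV and 6102 in wild-type GV, while the other members stayed between 1129 and 1584.

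The genes of the cluster are copies of each other, which bears on how reads could be assigned to them. In GENCODE M21 transcripts their coding sequences are 1392 to 1407 bases long, and the 66 pairs are 79.2% to 99.1% identical, with a median of 83.8%. Fbxw14 and Fbxw28 stand apart as the closest pair and differ at 13 of 1398 coding bases, and the next closest pair is 92.3% identical. The first 120 coding bases, which begin at the start codon, are shown for this pair and for Fbxw24, the most abundant member of the cluster in every library but wild-type MII. Capitals mark the bases at which Fbxw24 differs from Fbxw14, 11 of the 120.
Fbxw14: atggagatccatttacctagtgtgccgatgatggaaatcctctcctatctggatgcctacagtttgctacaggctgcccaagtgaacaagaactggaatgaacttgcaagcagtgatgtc
Fbxw28: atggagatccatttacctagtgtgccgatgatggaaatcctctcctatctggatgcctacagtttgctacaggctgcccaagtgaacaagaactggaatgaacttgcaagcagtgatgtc
Fbxw24: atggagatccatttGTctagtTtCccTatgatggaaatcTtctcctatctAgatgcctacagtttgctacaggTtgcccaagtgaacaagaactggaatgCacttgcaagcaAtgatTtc
Of all 50-base stretches of coding sequence, 70.6% of those in Fbxw14 and 68.1% of those in Fbxw28 also occur in another copy of the cluster, against 6.15% to 14.0% in the other 10 genes. Values for Fbxw14 and Fbxw28 alone are uncertain for this reason, and their sum is given below. GENCODE M21 also places Fbxw23, Fbxw25 and Fbxw27 in or beside the cluster, and these are not analysed here. It places antisense transcripts over Fbxw15 and Fbxw16, whose reads cannot be told apart from those of the genes, since the labels do not say whether strand was kept.

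Members were then compared between the stages within each genotype, which addresses mRNA loss during maturation relative to each library's total. In the library labelled Erk-/- MII against Erk-/- GV, 20 of the 59 members were lower and 17 higher. Of all 9990 genes compared, 35.6% were lower and 22.9% higher, and the median log2 ratio was -0.27 over the members and -0.26 over all genes. In wild-type MII against wild-type GV, 29 members were lower and 10 higher. The background there was 49.6% lower and 20.6% higher, and the medians were -0.82 over the members and -0.97 over all genes. The members' counts were near the background in both genotypes. Scaling the libraries to each other by the median of ratios moved the median of all genes to -0.07 in Erk-/- and -0.24 in wild type. It made the counts 20 lower and 18 higher in Erk-/-, and 22 lower and 20 higher in wild type. Shares of all genes were not counted after scaling, so scaled counts here and below have no matching background.

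The cluster and the other members split within these counts. In the library labelled Erk-/- MII, 7 of the 12 cluster genes were lower than in Erk-/- GV and 0 were higher, with a median log2 ratio of -1.63. Of the 47 other members that passed the filter, 13 were lower and 17 higher there, with a median of 0.38. In wild-type MII against wild-type GV, 10 cluster genes were lower and 0 higher, with a median of -2.99. The other members in wild type were 19 lower and 10 higher, with a median of 0.00. After scaling, 7 cluster genes were lower in Erk-/- with a median of -1.43, and 8 in wild type with a median of -2.17.

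As a sum, the cluster fell to 48.1% of its Erk-/- GV level in the library labelled Erk-/- MII, and to 22.5% of its wild-type GV level in wild-type MII. The scaled sums gave 55.3% in Erk-/- and 39.9% in wild type. The share left per gene ranged from 10.2% to 111% in Erk-/-, with a median of 31.9% over 12 genes. In wild type it ranged from 0.886% to 65.9%, with a median of 12.5% over the 11 genes above 0 at wild-type MII. Genes of the same cluster thus kept very different shares of their GV level. The plot of cluster levels by chromosome order shows the same contrast gene by gene.

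**Figure D2:**
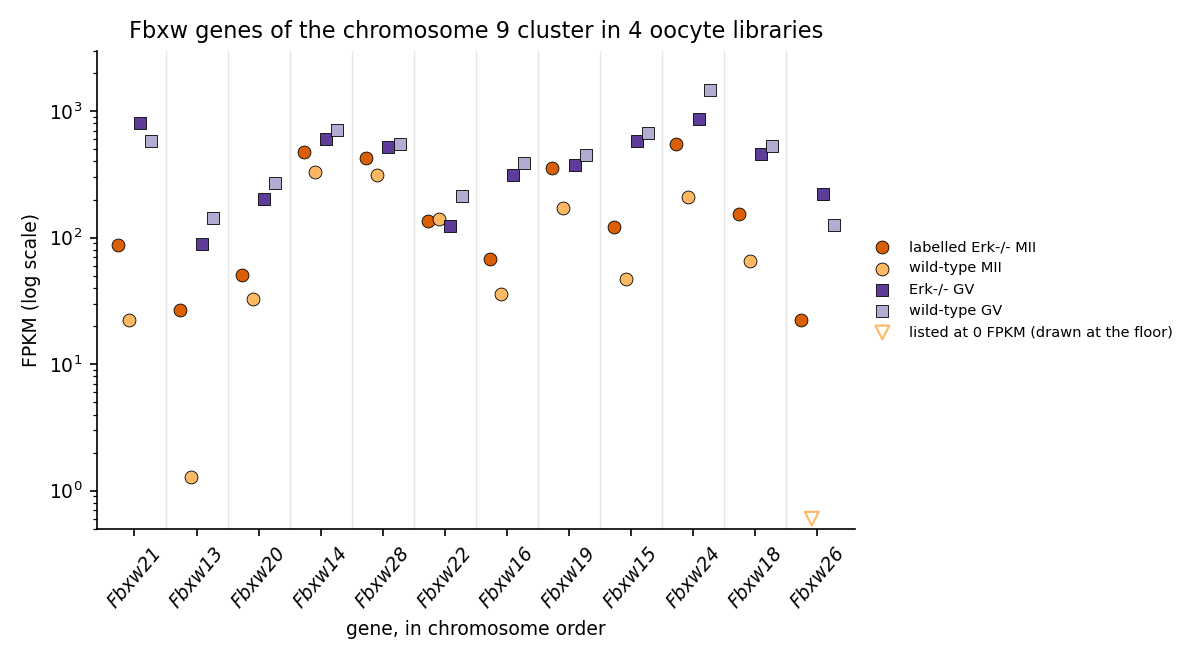
FPKM on a log axis of the 12 chromosome 9 Fbxw genes in chromosome order, with a circle for each MII library, a square for each GV library and an open triangle for the value listed at 0 (Fbxw26 in wild-type MII). Wild-type MII lies below both GV libraries for 11 genes, Fbxw22 being the exception, where it lies between them.

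Fbxw24 was the most abundant member in 3 of the libraries and ranked 20 among all genes in wild-type GV. It had 549.8 FPKM in the library labelled Erk-/- MII, 211 in wild-type MII, 861 in Erk-/- GV and 1479 in wild-type GV. In mouse oocytes Fbxw24 has been linked to meiotic prophase. Its MII level was 63.9% of GV in Erk-/- and 14.3% in wild type. Fbxw15 had 120.5 FPKM in the library labelled Erk-/- MII, 47.3 in wild-type MII, 584 in Erk-/- GV and 672 in wild-type GV. Its log2 maturation ratio was -2.27 in Erk-/- and -3.80 in wild type. Fbxw18 followed the same order, with 154 FPKM in the library labelled Erk-/- MII, 65.9 in wild-type MII, 454 in Erk-/- GV and 528 in wild-type GV. Both genes lay beyond 2-fold below GV in each genotype, and in both the wild-type MII library was the lowest of the 4.

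The steepest losses in wild type were those of Fbxw26, Fbxw13 and Fbxw21, which lie at the ends of the cluster. Fbxw26 had 22.4 FPKM in the library labelled Erk-/- MII, was listed at 0 in wild-type MII, and had 219 in Erk-/- GV and 126 in wild-type GV. No fold is given against the value listed at 0, which can be a failed estimate. Fbxw13 had 26.6 FPKM in the library labelled Erk-/- MII, with bounds of 21.6 to 27.4, and 1.28 in wild-type MII, with bounds of 0.71 to 1.78. At GV it had 89.5 FPKM in Erk-/- and 144 in wild type, so that 29.8% of the GV level was left in Erk-/- and 0.886% in wild type. Fbxw21 had 87.0 FPKM in the library labelled Erk-/- MII, 22.2 in wild-type MII, 799 in Erk-/- GV and 577 in wild-type GV. With Fbxw26 it was 1 of the 2 cluster genes that were higher in Erk-/- GV than in wild-type GV.

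Fbxw16 and Fbxw20 were intermediate in level and also lost most of it. Fbxw16 had 67.3 FPKM in the library labelled Erk-/- MII, 36.0 in wild-type MII, 314 in Erk-/- GV and 389 in wild-type GV. Fbxw20 had 50.4 FPKM in the library labelled Erk-/- MII, 32.9 in wild-type MII, 202 in Erk-/- GV and 269.6 in wild-type GV. The share left of Fbxw16 was 21.4% in Erk-/- and 9.25% in wild type, and that of Fbxw20 was 24.9% in Erk-/- and 12.2% in wild type. Fbxw19 had 352 FPKM in the library labelled Erk-/- MII, 170.1 in wild-type MII, 377 in Erk-/- GV and 446 in wild-type GV. It was within 2-fold of GV in Erk-/-, with a log2 ratio of -0.10, and beyond 2-fold lower in wild type, at -1.39, which scaling reduced to -0.56.

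Fbxw14, Fbxw28 and Fbxw22 kept the largest shares of their GV level in wild-type MII. The summed level of the near-identical Fbxw14 and Fbxw28 was 902 FPKM in the library labelled Erk-/- MII, 646 in wild-type MII, 1114 in Erk-/- GV and 1261 in wild-type GV. This left 81.0% in Erk-/- and 51.2% in wild type. Fbxw22, whose coding sequence is the next closest to that of Fbxw14, had 136 FPKM in the library labelled Erk-/- MII, 139 in wild-type MII, 123 in Erk-/- GV and 211 in wild-type GV. It was the cluster gene with the smallest difference between the stages in wild type, a log2 ratio of -0.60 that became 0.22 after scaling, and Fbxw28 moved from -0.82 to 0.01. The 3 genes that kept the largest shares in wild type were thus also the 3 with the closest coding sequences. They also lie next to each other in chromosome order.

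Genotypes were compared within each stage. At MII, 17 members were higher and 3 lower in the library labelled Erk-/- than in wild type, against a background of 31.4% of all genes higher and 7.43% lower. The members' median log2 ratio was 0.07, and that of all genes 0.31. Median-of-ratios scaling, which brings the median of all genes to 0, turned the split to 13 higher and 11 lower, and the members' median to -0.25. At GV, 7 members were higher and 14 lower in Erk-/- than in wild type, against 18.4% of all genes higher and 22.9% lower, with medians of -0.24 over the members and -0.06 over all genes. Taken over all members, the counts before scaling were close to the background shares or below them at both stages.

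Cluster genes made up 7 of the 17 members that were higher in the library labelled Erk-/- MII. Of the 12 cluster genes 11 were above their wild-type MII level, 7 by at least 2-fold, with a median log2 ratio of 1.13, and the exception was Fbxw22 at -0.03. After scaling 9 were above, 3 by at least 2-fold, with a median of 0.60, and Fbxw14 and Fbxw28 then stood at -0.02 and -0.09. At GV 0 of the 12 cluster genes differed by 2-fold between Erk-/- and wild type, 2 were higher and 10 lower in Erk-/-, and the median was -0.24. The cluster sum in Erk-/- was 1.80 times that of wild type at MII, or 1.24 times after scaling, and 0.842 times at GV. Of the 47 other members, 10 were higher and 3 lower in the library labelled Erk-/- MII, with a median of -0.07. Oocyte markers moved in part with the cluster. Of 8 markers 5 were at least 2-fold higher and 0 lower in the library labelled Erk-/- MII than in wild-type MII, with a median log2 ratio of 1.87. Of all genes 31.4% were higher and 7.43% lower there. Gdf9, Oosp1 and Dppa3 were slightly lower, at -0.10, -0.25 and -0.05. The markers summed to 13599 FPKM in the library labelled Erk-/- MII and 12513 in wild-type MII. The part of the markers in the result was not tested.

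The size of the genotype difference at each stage gives a scale for reading these ratios. Among the 41 members with a mean of at least 10 FPKM, the median absolute log2 ratio was 0.51 at MII and 0.47 at GV, and over 5294 genes of that level it was 0.72 at MII and 0.55 at GV. For the cluster it was 1.13 at MII and 0.36 at GV. For the 29 other members it was 0.39 at MII and 0.57 at GV. The cluster genes thus differed more between the genotypes at MII than at GV, also after scaling, with 0.62 at MII and 0.27 at GV. Scaling gave 0.89 at MII and 0.55 at GV over all genes of that level. All genes thus had the same order of the stages, and the scaled cluster values lay below theirs at both. For the other members the order depended on the scaling, which gave 0.92 at MII and 0.48 at GV.

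**Figure D3:**
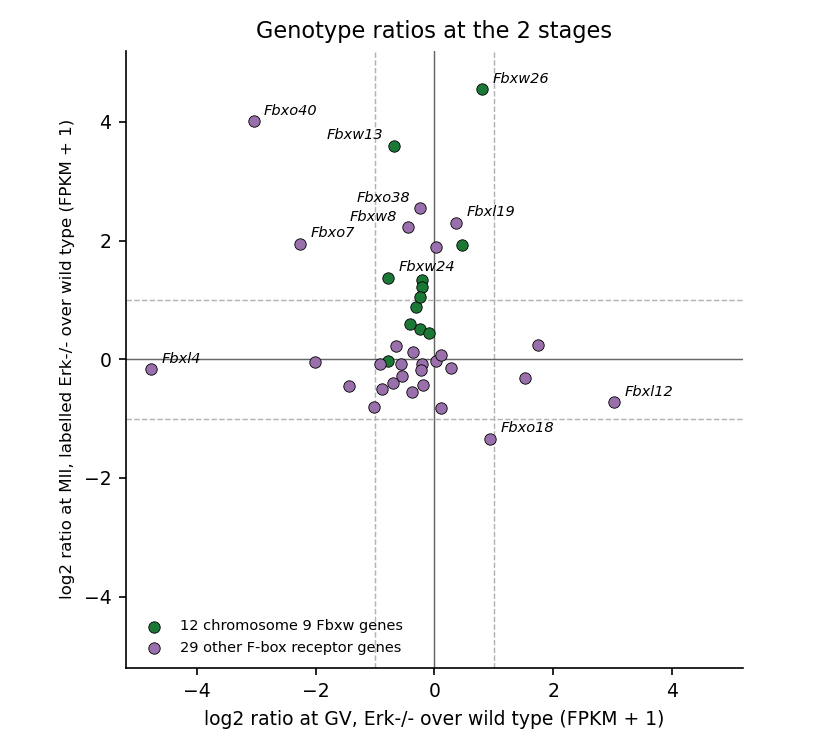
Log2 ratio of FPKM + 1, Erk-/- over wild type, at GV (horizontal axis) and at MII (vertical axis) for the 41 members with a mean of at least 10 FPKM, 1 point per gene, with dashed lines at 2-fold. The cluster genes lie within 2-fold on the GV axis, and 7 of them lie above 2-fold on the MII axis; the points of Fbxw26, Fbxo40, Fbxl4 and Fbxl8 rest on a value listed at 0.

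The maturation ratio in Erk-/- minus that in wild type combines the 4 libraries in a single value per gene. It was at least 1 log2 unit in 26 members and at most -1 in 7, with a background of 41.2% and 18.8% of all genes, and the medians were 0.76 over the members and 0.59 over all genes. Scaling changed the members' split to 18 and 11. All 12 cluster genes had a positive difference, 9 of at least 1, and the values ranged from 0.54 in Fbxw28 to 4.28 in Fbxw13. After scaling 11 were positive and 3 of at least 1, which were Fbxw13, Fbxw24 and Fbxw26, and Fbxw28 was at -0.08. Among the 47 other members 17 were at least 1 and 7 at most -1, with a median of 0.39.

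**Figure D4:**
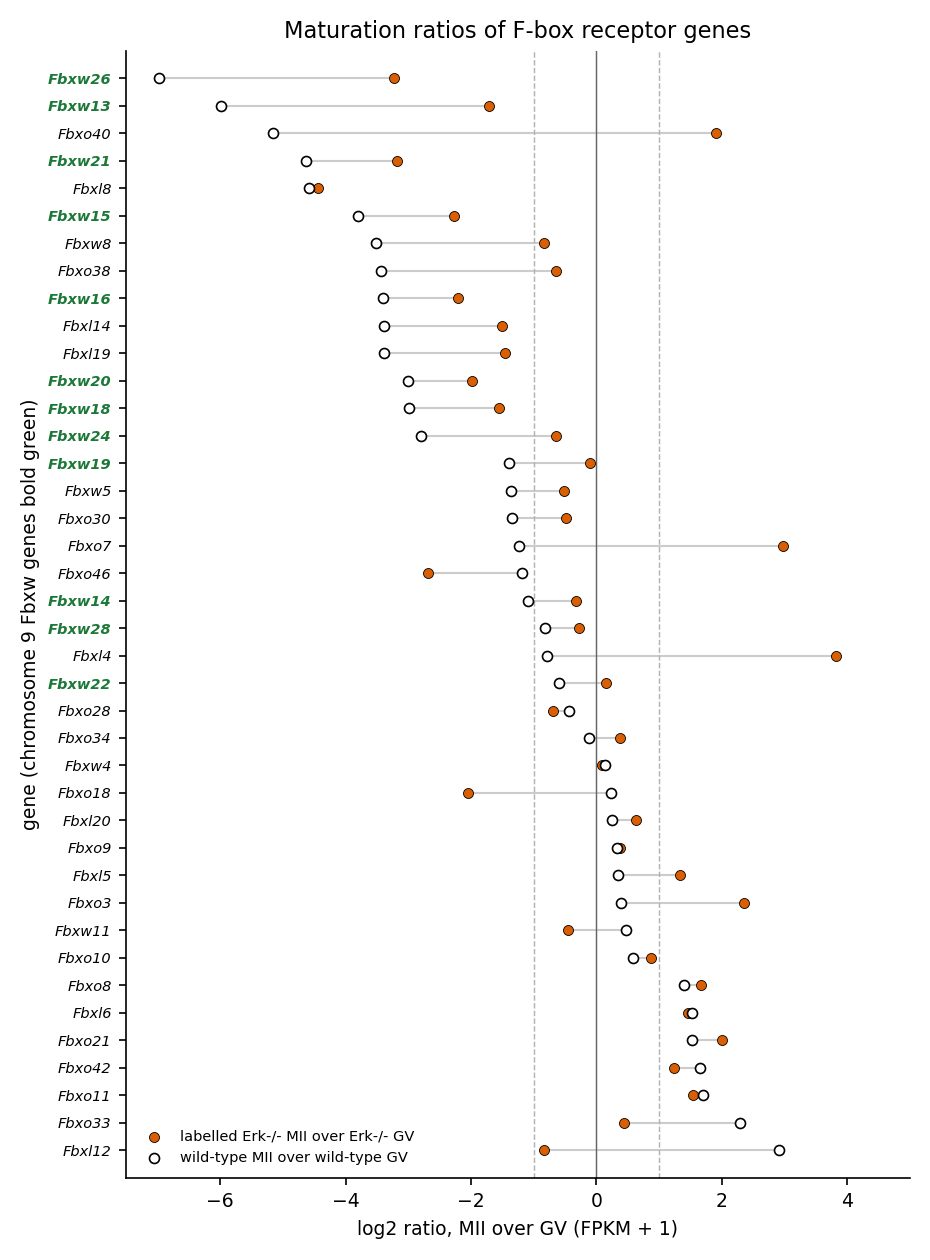
Log2 ratio of FPKM + 1, MII over GV, in Erk-/- (filled circles, using the library labelled Erk-/- MII) and wild type (open circles) for 40 of the 41 members with a mean of at least 10 FPKM, sorted by the wild-type ratio, with dashed lines at 2-fold. All 12 cluster genes (bold green names) have the filled circle to the right of the open circle; the wild-type points of Fbxw26 and Fbxo40 and the Erk-/- points of Fbxl4 and Fbxl8 rest on a value listed at 0.

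Of the 9 Fbxw genes outside the cluster 8 passed the filter, and only Fbxw4 exceeded 51 FPKM. At wild-type MII 4 were lower and 1 higher than at GV, beside 49.6% of all genes lower and 20.6% higher. Fbxw4, also called dactylin, lay between 68.0 and 78.6 FPKM in the 4 libraries. Fbxw8, which pairs with the cullin CUL7, had 20.2 FPKM in the library labelled Erk-/- MII, 3.54 in wild-type MII, 36.9 in Erk-/- GV and 50.9 in wild-type GV. The wild-type MII library alone was far below the other libraries, and Fbxw8 was higher by 2.22 on the log2 scale in the library labelled Erk-/- MII. Fbxw11 and Btrc encode the paired β-TrCP proteins, receptors for IκB, β-catenin and EMI1. Fbxw11 had 10.3 FPKM in the library labelled Erk-/- MII, 19.1 in wild-type MII, 14.6 in Erk-/- GV and 13.5 in wild-type GV, and it stayed within 2-fold in every comparison of the deposited values. After scaling it was beyond 2-fold in 3, with log2 ratios of -1.33 between genotypes at MII, 1.25 in wild-type maturation and -1.52 in the difference of maturation ratios.

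Fbxw7, the receptor for cyclin E, MYC and NOTCH, was low except in a single library. It had 2.73 FPKM in the library labelled Erk-/- MII, 1.60 in wild-type MII, 12.2 in Erk-/- GV and 0.770 in wild-type GV. The Erk-/- GV value stood out, and the other 3 libraries were below 3 FPKM. Fbxw5 had 8.12 FPKM in the library labelled Erk-/- MII, 8.63 in wild-type MII, 12.1 in Erk-/- GV and 23.8 in wild-type GV. It was lower at MII in wild type, by a log2 ratio of -1.36 that scaling reduced to -0.60. Fbxw9 had 1.62 FPKM in the library labelled Erk-/- MII, 0.581 in wild-type MII, a listed 0 in Erk-/- GV and 10.6 in wild-type GV, so that it was detected at more than 2 FPKM only in wild-type GV.

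Of the 15 Fbxl genes that passed the filter, 5 were lower and 5 higher in the library labelled Erk-/- MII than in Erk-/- GV, and 7 were lower and 3 higher in wild-type MII against wild-type GV, which scaling turned to 6 lower and 7 higher. The wild-type counts were near the shares of all genes, 49.6% lower and 20.6% higher. In Erk-/- the shares of all genes were 35.6% lower and 22.9% higher. Fbxl6 was the most abundant receptor outside the cluster in both MII libraries, whereas Fbxo34 exceeded it in both GV libraries. It had 408 FPKM in the library labelled Erk-/- MII, 416 in wild-type MII, 147 in Erk-/- GV and 144 in wild-type GV. Its level differed between the stages, by log2 ratios of 1.47 in Erk-/- and 1.52 in wild type, and much less between the genotypes, by -0.03 at MII and 0.03 at GV. Scaling moved the genotype ratio at MII to -0.56. In wild-type MII it exceeded every gene of the cluster. Fbxl5, the iron-sensing receptor for the iron regulatory protein IRP2, had 54.8 FPKM in the library labelled Erk-/- MII, 75.0 in wild-type MII, 21.2 in Erk-/- GV and 59.1 in wild-type GV. The Erk-/- GV library was the low value.

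Fbxl19 and Fbxl14 fell at MII in both genotypes and further in wild type. Fbxl19, a CXXC protein that binds CpG islands, had 31.1 FPKM in the library labelled Erk-/- MII, 5.50 in wild-type MII, 86.7 in Erk-/- GV and 66.8 in wild-type GV. Fbxl14, a receptor for the transcription factor SNAI1, had 8.82 FPKM in the library labelled Erk-/- MII, 1.63 in wild-type MII, 27.0 in Erk-/- GV and 26.6 in wild-type GV. The log2 maturation ratio of Fbxl19 was -1.45 in Erk-/- and -3.38 in wild type, and that of Fbxl14 was -1.51 in Erk-/- and -3.39 in wild type. Fbxl8 and Fbxl18 were detected at GV and near 0 at MII in both genotypes. Fbxl8 was listed at 0 in the library labelled Erk-/- MII and had 0.051 FPKM in wild-type MII, against 20.8 in Erk-/- GV and 24.2 in wild-type GV. Fbxl18 had 0.034 FPKM in the library labelled Erk-/- MII, 0.796 in wild-type MII, 14.2 in Erk-/- GV and 12.7 in wild-type GV. For these the 2 genotypes were close at GV, and both MII libraries were under 1 FPKM.

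Fbxl2 was lower at MII in both genotypes, with 0.684 FPKM in the library labelled Erk-/- MII, 5.24 in wild-type MII, 9.50 in Erk-/- GV and 18.1 in wild-type GV. Scaling reduced its wild-type log2 maturation ratio of -1.61 to -0.87. It was 1 of only 3 members lower in the library labelled Erk-/- MII than in wild-type MII. Fbxl12 had 18.5 FPKM in the library labelled Erk-/- MII, 31.2 in wild-type MII, 33.9 in Erk-/- GV and 3.27 in wild-type GV. Its wild-type GV value was far below the others, and its comparisons rest on that library. Fbxl4, which localises to mitochondria, had 13.2 FPKM in the library labelled Erk-/- MII, 14.9 in wild-type MII, a listed 0 in Erk-/- GV and 26.5 in wild-type GV. Fbxl21 stayed at or below 4.10 FPKM and was listed at 0 in wild-type MII and Erk-/- GV. Fbxl20 ranged from 9.71 to 22.6 FPKM over the 4 libraries and stayed within 2-fold in every comparison of the deposited values, while scaling gave log2 ratios of -1.01 between genotypes at MII and 1.04 in wild-type maturation.

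Of the Fbxo genes 24 passed the filter. In the library labelled Erk-/- MII against Erk-/- GV 11 (45.8%) were higher and 5 (20.8%) lower. The background for that comparison, over the 9990 genes compared, was 22.9% higher and 35.6% lower. In wild type 6 Fbxo genes (25%) were higher and 8 (33.3%) lower, beside a background of 20.6% and 49.6%. Scaling turned the wild-type Fbxo counts to 11 higher and 5 lower. The 4 that were higher at MII in both genotypes and reached 50 FPKM were Fbxo21, Fbxo11, Fbxo42 and Fbxo8. Fbxo11, a receptor for BCL6, had 73.0 FPKM in the library labelled Erk-/- MII, 108 in wild-type MII, 24.4 in Erk-/- GV and 32.2 in wild-type GV. Fbxo21 had 107 FPKM in the library labelled Erk-/- MII, 114 in wild-type MII, 26.0 in Erk-/- GV and 39.0 in wild-type GV. Fbxo42, linked to p53 in human cells, had 72.3 FPKM in the library labelled Erk-/- MII, 79.8 in wild-type MII, 29.9 in Erk-/- GV and 24.6 in wild-type GV. In each of these the 2 MII libraries lay above the 2 GV libraries. This order largely follows from choosing genes higher at MII in both genotypes. Fbxo8, which carries a Sec7 domain, had 56.2 FPKM in the library labelled Erk-/- MII, 68.5 in wild-type MII, 17.0 in Erk-/- GV and 25.3 in wild-type GV, the same order.

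Fbxo34 was the most abundant Fbxo gene and was steady, at 206 FPKM in the library labelled Erk-/- MII, 188 in wild-type MII, 158 in Erk-/- GV and 203 in wild-type GV. It has been linked to meiotic progression in mouse oocytes. Fbxo28, Fbxo9 and Fbxo10 also stayed within 2-fold in every comparison of the deposited values, between 17.7 and 55.9 FPKM. After scaling the wild-type maturation ratio was 1.12 in Fbxo9 and 1.38 in Fbxo10, and that of Fbxo10 in Erk-/- was 1.07. Fbxo33 had 52.3 FPKM in the library labelled Erk-/- MII, 65.4 in wild-type MII, 38.1 in Erk-/- GV and 12.6 in wild-type GV. Wild-type GV was the low value, so that its log2 maturation ratio was 0.45 in Erk-/- and 2.29 in wild type. Fbxo18, the FBH1 helicase, had 15.7 FPKM in the library labelled Erk-/- MII, 41.3 in wild-type MII, 68.1 in Erk-/- GV and 35.1 in wild-type GV. It was lower in the library labelled Erk-/- MII than in wild-type MII, by a log2 ratio of -1.34, and near 2-fold higher in Erk-/- GV than in wild-type GV, at 0.94.

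Fbxo38 had its libraries in the same order as most cluster genes, with wild-type MII lowest and wild-type GV highest. It had 17.9 FPKM in the library labelled Erk-/- MII, with bounds of 16.3 to 19.4, 2.23 in wild-type MII, with bounds of 1.80 to 2.67, 28.7 in Erk-/- GV and 34.1 in wild-type GV. FBXO38 is known in human cells as a receptor for PD-1. Fbxo7, a receptor tied to parkinsonism in humans and to the proteasome regulator PI31, had 33.1 FPKM in the library labelled Erk-/- MII, 7.82 in wild-type MII, 3.34 in Erk-/- GV and 19.8 in wild-type GV. Its genotype order was opposite at the 2 stages. Fbxo40, described as a muscle receptor for IRS1, had 15.2 FPKM in the library labelled Erk-/- MII, a listed 0 in wild-type MII, 3.33 in Erk-/- GV and 34.8 in wild-type GV. Fbxo30, also called MUSA1 and known from muscle, ranged from 12.8 to 34.0 FPKM and was lower at MII in wild type, at a log2 ratio of -1.35 that scaling reduced to -0.56. Fbxo31, a receptor for cyclin D1, had 0.043 FPKM in the library labelled Erk-/- MII, 0.021 in wild-type MII, 2.03 in Erk-/- GV and 13.0 in wild-type GV.

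In several of the remaining Fbxo genes that reached 10 FPKM, a single library stood apart. Fbxo3 had 31.5 FPKM in the library labelled Erk-/- MII, 32.4 in wild-type MII, 5.31 in Erk-/- GV and 24.4 in wild-type GV, with Erk-/- GV the low value. Fbxo25 had 17.7 FPKM in the library labelled Erk-/- MII, 14.7 in wild-type MII, a listed 0 in Erk-/- GV and 6.53 in wild-type GV. Fbxo46 had 4.91 FPKM in the library labelled Erk-/- MII, 4.01 in wild-type MII, 37.2 in Erk-/- GV and 10.4 in wild-type GV, so both MII libraries were lower, in wild type by a log2 ratio of -1.19 that scaling reduced to -0.48. Fbxo16 reached 18.2 FPKM in Erk-/- GV and was at most 3.96 elsewhere, and Fbxo36 had 12.3 FPKM in the library labelled Erk-/- MII and was listed at 0 in the other 3. Values of this kind have no second library of the same group to set them against.

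The SCF machinery that F-box proteins dock to was compared as a list of 24 genes, of which 23 passed the filter. In wild-type MII against wild-type GV, 13 were lower and 4 higher, with a median log2 ratio of -1.31, beside 49.6% of all genes lower and 20.6% higher. After scaling 10 were lower and 4 higher, with a median of -0.50. In the library labelled Erk-/- MII against wild-type MII, 10 were higher and 0 lower, with a median of 0.71. Of all genes 31.4% were higher and 7.43% lower there. After scaling 9 of the list were higher and 2 lower, with a median of 0.18. At GV 3 of the list were higher and 2 lower in Erk-/-, beside 18.4% of all genes higher and 22.9% lower. The median difference of the maturation ratios was 0.89 over this list, beside 0.76 over the receptors and 0.59 over all genes, and after scaling 0.28 over the list, 0.14 over the receptors and 0.07 over all genes.

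The core subunits moved in different directions. Skp1a, the adaptor that binds the F-box, had 957 FPKM in the library labelled Erk-/- MII, 174 in wild-type MII, 1302 in Erk-/- GV and 1715 in wild-type GV. Cul1, the scaffold, had 609 FPKM in the library labelled Erk-/- MII, 839.7 in wild-type MII, 267 in Erk-/- GV and 336 in wild-type GV. Rbx1, the RING subunit, had 90.6 FPKM in the library labelled Erk-/- MII, 137 in wild-type MII, 58.2 in Erk-/- GV and 46.4 in wild-type GV. The adaptor mRNA thus had the order of the cluster, lowest in wild-type MII, while the scaffold and RING mRNAs were highest there. The COP9 signalosome removes NEDD8 from cullins. Of its 9 subunits 5 were lower and 0 higher in the library labelled Erk-/- MII than in Erk-/- GV. In wild-type MII against wild-type GV 7 were lower and 0 higher. Of all genes 35.6% were lower and 22.9% higher in Erk-/-, and 49.6% lower and 20.6% higher in wild type. After scaling 5 subunits were lower in Erk-/- and 6 in wild type. Cops6 had 14.5 FPKM in the library labelled Erk-/- MII, 0.191 in wild-type MII, 103 in Erk-/- GV and 100.3 in wild-type GV. Cops4 had 8.49 FPKM in the library labelled Erk-/- MII, a listed 0 in wild-type MII, 63.8 in Erk-/- GV and 66.5 in wild-type GV. Uba3, a subunit of the NEDD8-activating enzyme, went the other way, with 58.4 FPKM in the library labelled Erk-/- MII, 89.8 in wild-type MII, 13.8 in Erk-/- GV and 26.1 in wild-type GV.

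The promoters of the cluster genes resemble each other and carry a shared motif. RefSeq promoters of build GRCm38.p6 were matched for 56 of the 74 members and for 10 of the 12 cluster genes, all but Fbxw13 and Fbxw22. Over the 250 bases before the start site the 45 pairs of cluster promoters were 60.7% to 96.4% identical, with a median of 82.8%. Of this stretch 170 bases are shown for 4 of the cluster genes that differ in how much of their level was left at MII, with capitals marking CAGCTG. This palindrome is a form of the E-box CANNTG, the motif of basic helix-loop-helix factors such as FIGLA in oocytes.
Fbxw24, minus strand of chr9:109626060-109626229: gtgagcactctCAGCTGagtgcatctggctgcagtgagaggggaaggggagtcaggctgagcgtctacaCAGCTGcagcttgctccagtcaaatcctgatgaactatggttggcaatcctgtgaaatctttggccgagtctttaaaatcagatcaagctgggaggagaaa
Fbxw14, minus strand of chr9:109287677-109287846: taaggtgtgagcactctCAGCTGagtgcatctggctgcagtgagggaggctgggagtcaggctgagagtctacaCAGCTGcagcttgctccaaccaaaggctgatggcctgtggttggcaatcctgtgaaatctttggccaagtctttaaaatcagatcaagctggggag
Fbxw15, minus strand of chr9:109568263-109568432: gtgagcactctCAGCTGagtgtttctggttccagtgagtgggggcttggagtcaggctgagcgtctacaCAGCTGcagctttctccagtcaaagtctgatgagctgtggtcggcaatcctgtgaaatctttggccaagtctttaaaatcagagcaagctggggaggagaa
Fbxw21, minus strand of chr9:109162023-109162192: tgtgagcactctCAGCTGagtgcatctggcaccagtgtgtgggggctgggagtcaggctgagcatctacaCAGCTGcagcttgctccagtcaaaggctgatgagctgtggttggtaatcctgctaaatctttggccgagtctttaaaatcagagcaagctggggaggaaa
CAGCTG was found in 10 of 10 cluster promoters, with 1 or 2 copies each, in 7 of the 34 matched promoters of other members that passed the filter, and in 13% of 32851 RefSeq promoters. CANNTG, which includes it, was found in 10 of 10, 23 of 34 and 66.2% of these sets. Searched on both strands, TAATTG, an element bound by the oocyte homeobox protein NOBOX, was in 0 of 10, 2 of 34 and 7.17%. TATAAA was in 0 of 10, 0 of 34 and 12.4%, and the GC-box letters GGCGGG in 0 of 10, 19 of 34 and 32.5%. The cluster promoters had a median GC content of 50.0% and 1 CpG, against 62.0% and 16.5 CpG in the other members and 52.4% and 6 CpG in all promoters. A match is a description of letters and not of binding, and because the promoters are copies the 10 matches are not independent.

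The ends of the transcripts also set the cluster apart from the other members. In GENCODE M21 the median length of the 3′ untranslated region was 58.5 bases over the 12 cluster genes, 1612.5 over 46 other members and 910.0 over all genes compared. A polyadenylation signal AATAAA lay in the last 50 bases in 9 of 12 cluster genes, 33 of 46 other members and 62.8% of all genes. Up to 30 bases around it are shown for 4 cluster genes and for Fbxo33, with capitals marking the signal in the first 4. In Fbxo33 they mark TTTTAAT, which is like TTTTAT a cytoplasmic polyadenylation element, the site of CPEB1 on mRNAs whose poly(A) tail is extended as oocytes mature.
Fbxw24: ttcctcaatgatAATAAAggtctatttgca
Fbxw21: ttcctcaatgatAATAAAagtctatttgca
Fbxw15: ttcctcaaagatAATAAAggcctatttgca
Fbxw28: ttactcaatgatAATAAAggtctatttcca
Fbxo33: aaatgtatattcTTTTAATcaatgaataaa
These elements were searched on the transcript strand in the last 100 bases, or in the whole untranslated region where it was shorter. They were in 0 of 12 cluster genes, 8 of 46 other members and 19.7% of all genes compared. Most cluster genes have fewer than 100 bases to search, and as copies their absences are not independent. Members with the element had a median wild-type maturation log2 ratio of 0.24 over 8 genes, 2 of them higher and 2 lower at MII. Members without it outside the cluster had a median of -0.46 over 38 genes, with 8 higher and 17 lower. Over all genes the medians were 0.22 with the element and -1.33 without it. The deposited values do not show poly(A) tail length, and how mRNA was purified is not stated in the labels, so tail length and mRNA amount cannot be told apart. Within the cluster Fbxw14, Fbxw22 and Fbxw26 had the longest ends, of 348, 401 and 389 bases, and these include genes that kept the most and the least of their level in wild type. Fbxl6, whose untranslated region has 83 bases, was higher at MII. A relation of end length to the maturation ratio was not tested.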

How the data were processed

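The authors deposited FPKM with a lower and an upper bound per gene, per the file headers. CASAVA 1.8, TopHat and mouse build mm9 were used, per the submitters' processing notes, while the program behind the FPKM values, its annotation and its handling of reads from near-identical genes were not given in the sources used here. Each file had 23813 rows, FPKM were summed over the rows of a symbol, and each member stood on a single row. Locus starts counted from 0, so 1 was added. Values outside their own bounds, 6 to 12 members per library, are given without bounds. In both GV libraries these members were Fbxl6 and every cluster gene but Fbxw28. In the MII libraries they were Fbxl6 and other genes of the cluster. Counts cannot be had from these files, so depth is known only as relative bound width.

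Ratios were taken as log2((FPKM + 1)/(FPKM + 1)), which understates changes of low genes, over the 9990 genes that averaged 1 FPKM or more. With 1 library per group there was no test and no p-value. Alternatives were a pseudocount of 0.1, no filter or a mean of 10 FPKM, median-of-ratios scaling over 7085 genes, the highest row per symbol, leaving out genes listed at 0, and non-overlapping bounds. Values were given to all chromosome 9 Fbxw genes, members of at least 10 FPKM in a library and 12 members with a well-known substrate. Values of 1 member and 1 other gene are not reported here. Members and lists were chosen with earlier results of these data known. Sequences came from GENCODE M21 and RefSeq tables on GRCm38, and no coordinates were converted. Calculations used Python 3.11.15, pandas 2.3.3, numpy 2.4.6 and biopython 1.88. The ratio code was run on wild-type GV values with known changes put in and no noise. That run checks the arithmetic and not the error of a single library.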

Additional observations from a re-analysis of the deposited data

Results flagged for a closer look

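In 5 members the maturation ratio went beyond 2-fold in opposite directions in the 2 genotypes. The difference between genotypes was not tested, having 1 library per group, and each value is the Erk-/- minus the wild-type maturation log2 ratio on the FPKM + 1 scale, with the direction in Erk-/- resting on the library labelled Erk-/- MII. The difference was 4.21 in Fbxo7, the only one of the 5 above 0 in all 4 libraries with at least 10 FPKM in a library. After median-of-ratios scaling its wild-type maturation ratio was -0.48, no longer beyond 2-fold. It was 7.07 in Fbxo40, which was listed at 0 in wild-type MII. It was -4.09 in Fbxw2, a WD40 receptor with 2.05 FPKM in the library labelled Erk-/- MII, 5.28 in wild-type MII, 7.91 in Erk-/- GV and 0.073 in wild-type GV. Fbxw9, listed at 0 in Erk-/- GV, had 4.26. Fbxl13, listed at 0 in wild-type MII and Erk-/- GV, had 4.34. Ratios that involve a value listed at 0 depend on the pseudocount.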

How the results depend on the processing

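Scaling by the median of ratios changed the most. It raised the members lower in the library labelled Erk-/- MII than in wild-type MII to 11, against 3, and turned their median log2 ratio from 0.07 to -0.25. It raised the members higher at wild-type MII than at GV to 20, with a median of -0.0023, and gave a median of -0.0701 in Erk-/- maturation. For the difference of maturation ratios it gave 11 members at most -1 and a median of 0.14, where a pseudocount of 0.1 gave 0.90. Scaled cluster sums were 1852 in wild-type MII, 4161 in Erk-/- GV and 4644 in wild-type GV. Whether the scaled or the deposited values lie closer to the RNA of the oocytes was not tested. A pseudocount of 0.1 gave 6 members lower at MII in the library labelled Erk-/-. With a mean of at least 10 FPKM, fewer members were compared: 1 was lower in the library labelled Erk-/- MII than in wild-type MII, 3 higher and 6 lower in Erk-/- GV than in wild-type GV, 10 higher and 12 lower in Erk-/- maturation, and 17 higher and 4 lower in the difference. Of all 5294 genes of that level, 281 were lower at MII between genotypes, and 647 were higher and 788 lower at GV. Without genes listed at 0 the members' counts were 11 higher at MII between genotypes, 7 lower at GV between genotypes, 10 higher in Erk-/- maturation and 16 higher in the difference. Other shares of all genes were not counted under these alternatives. With the cluster counted as 1 gene, an alternative chosen after seeing the data, 10 members were higher in the library labelled Erk-/- MII than in wild-type MII. Of 250 single-gene ratios, 213 kept their side of 2-fold under scaling, 20 of which changed sign within 2-fold, 19 newly passed 2-fold and 18 no longer did. No paired analysis was possible because each group has a single library. Leaving out the library labelled Erk-/- MII leaves no value for the comparisons that use it. Values of near-identical copies, of genes under 10 FPKM, of genes listed at 0 and of genes outside their own bounds are the least certain.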

Other observations

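F-box proteins that carry other symbols were measured as well, and 6 of the 8 in the files passed the filter. Skp2, the receptor for the cyclin-dependent kinase inhibitor p27, had 5.89 FPKM in the library labelled Erk-/- MII, 17.8 in wild-type MII, 1.46 in Erk-/- GV and 5.78 in wild-type GV, so it was higher at MII in both genotypes. Btrc, the β-TrCP1 gene, had 7.37 FPKM in the library labelled Erk-/- MII, 4.02 in wild-type MII, 83.1 in Erk-/- GV and 46.0 in wild-type GV. Its level was low at MII in both genotypes, while its paralog Fbxw11 was not lower by 2-fold at MII in either genotype. Ccnf, which encodes cyclin F, had 2.56 FPKM in the library labelled Erk-/- MII, a listed 0 in wild-type MII, 45.0 in Erk-/- GV and 17.6 in wild-type GV. Kdm2b, a histone demethylase with an F-box, had 143 FPKM in the library labelled Erk-/- MII, 20.4 in wild-type MII, 140.1 in Erk-/- GV and 118 in wild-type GV. Wild-type MII was the only low library for Kdm2b.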
